A study of Mus musculus with 4 samples.

Results

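Pitx1 and Pitx3, which encode paired-like homeodomain transcription factors, were examined for Pax7 binding in muscle progenitors. A Pax7 peak was assigned to a gene when its summit, the base of highest signal, lay from 100 kb before the gene's start to 100 kb after its end. This gave 11 of the 20579 peaks in the deposited list, of which 1 was near Pitx1 and 10 were near Pitx3. Neither gene held a summit within its own transcribed span.

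The peaks came from iPax7 cells, mouse embryonic stem cells that carry a single Pax7 cDNA beside Hprt under a doxycycline (Dox) responsive element. Dox at 1 µg/ml was given from day 3 of serum differentiation, PDGFRα+FLK1- cells were sorted on day 5 and grown with Dox and basic FGF at 10 ng/ml, and cells were harvested on day 9, after 6 days of Dox. Pax7 ChIP and input were each sequenced as 2 libraries, all from this state. Pax7 in these cells is driven by the transgene, and no Pax7 ChIP of cells without Dox was analysed here. Because the authors called peaks on merged libraries, each value below is 1 number with no replicate error, no difference between peaks was tested, and the list does not give the read depth behind a peak.

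Pax7 is a paired-box transcription factor of muscle stem cells. It contacts DNA through a paired domain and a homeodomain, and can open closed chromatin at enhancers. Pitx factors bind DNA through a homeodomain of the bicoid type, which prefers TAATCC. Pitx1 is known for specifying hindlimb identity and for activating hormone genes in the pituitary, and Pitx3 for its roles in the lens, in midbrain dopaminergic neurons and in differentiating muscle cells.

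Fold enrichment is the authors' peak caller's ratio of ChIP signal to local background at the summit. The list spans 1.60 to 28.0, its middle 50% of peaks lies between 4.32 and 6.74, and the median is 5.22. The Pitx1 peak and 3 of the 10 Pitx3 peaks stood at 5-fold or above, as did 54.9% of all peaks.

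Pitx1 had 1 distal Pax7 peak and none at its promoter. The gene lies on the minus strand of chromosome 13, from 55926415 to 55937553 in mm9. The peak, chr13:55918493-55918858, stood in intergenic sequence 7.78 kb beyond the 3′ end of Pitx1, between this gene and Catsper3, which encodes a subunit of a sperm calcium channel. Its summit was 18.9 kb downstream of the annotated gene start, and 14150 bp from the start of the shorter Pitx1 transcript. Pitx1 was the gene with the nearest TSS.

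The fold enrichment of the Pitx1 peak was 6.72 and its −log10 q was 18.5. It exceeded 74.7% of all peaks in fold enrichment and 71.8% in −log10 q. At 366 bp, it was also wider than the median peak of 252 bp. The peak was thus in the upper part of the list, though not among its strongest members.

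The sequence around the Pitx1 summit is shown because it lacked the 3 long sequences that were searched, called long Pax sequences here. These were GTCACG, the core bound by the paired domain, and ATTAGTCA, which joins a homeodomain and a paired-domain contact. The last was a homeodomain dimer of TAAT followed after 3 bases by ATTA. The search took in both strands, up to 50 bp from the summit. Dimers with any other spacing were not searched, so a window without a long Pax sequence may still hold one. In the stretch below (mm9, plus strand, chr13:55918586-55918686), capitals mark ATTA and GTCAC, shorter sequences that were added after the sequences had been seen. On the opposite strand they read TAAT and GTGAC, and TAAT is found within the dimer as well.
Pitx1 peak: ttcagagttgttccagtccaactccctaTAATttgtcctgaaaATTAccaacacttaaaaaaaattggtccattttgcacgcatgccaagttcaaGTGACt
An ATTA stood 5.5 bp from the summit and another, on the opposite strand, 20.5 bp away. GTCAC was found on the minus strand 47.0 bp from the summit. The GC content of the window was 37.6%, against a median of 45.5% over all summits.

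Within 100 kb, the surroundings of the Pitx1 peak were sparse. The next summit upstream in the gene's direction was 148 kb away and the next downstream was 123 kb away. No Pax7 summit lay in the 100 kb before the gene start. A peak count of at least 1 was common, being found for 75.2% of the 22350 annotated protein-coding genes by the same rule. The median coding gene had 2.00 summits in its window, and 24.8% had none. At 0.474 summits per 100 kb, the Pitx1 window was below the mean of 0.805 per 100 kb of sequenced genome. It held the start sites of 2 other coding genes, whereas the median coding-gene window held 5.00 start sites, its own included. The window had 0 unsequenced bases.

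More Pax7 peaks came into view beyond the 100 kb limit. The interval from the Pitx1 start to the next annotated gene upstream, H2afy, which encodes a macroH2A histone variant, is 237 kb long and held 5 summits. They stood 129, 141, 168, 168 and 183 kb upstream, with fold enrichments of 4.71, 3.88, 4.08 for the farther and 7.20 for the nearer of the pair at 168 kb, and 9.10. The last of these exceeded 90.0% of all peaks, and the 7.20-fold peak was the 1 of the 5 with a long Pax sequence near its summit. The first peak outside the window on the upstream side was 28.8 kb past its edge. Within 200 kb, Pitx1 thus had 8 peaks in place of 1, against a median of 4.00 for coding genes, and 19.6% of coding genes had as many. Its place among coding genes therefore turned with the window, from below the median to above it.

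**Figure D1:**
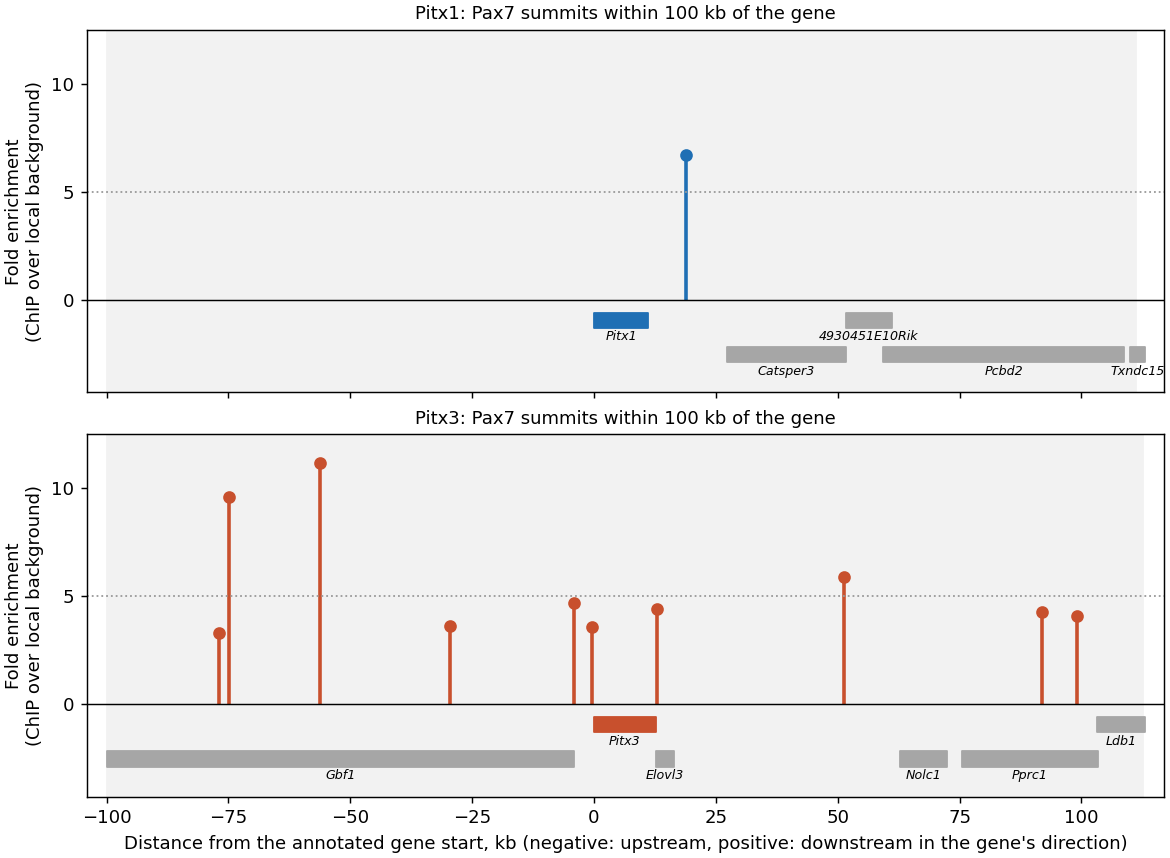
Pax7 summits in the windows of Pitx1 (top) and Pitx3 (bottom). The x axis is the distance from the annotated gene start in kb, negative upstream and positive downstream in the gene's direction, and the y axis is fold enrichment, with a dotted line at 5. Each stem is 1 peak of the merged libraries, and boxes show annotated genes, with those on the strand of the Pitx gene in the upper row. Pitx1 has 1 stem at 6.72, and Pitx3 has 10, with the 2 tallest in Gbf1.

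Pitx3 was surrounded by 10 peaks, 6 upstream and 4 downstream of the gene. Pitx3 lies on the minus strand of chromosome 19, from 46210175 to 46222865 in mm9. The lowest fold enrichment among its peaks was 3.31, the median 4.34 and the highest 11.2, and for −log10 q these values were 4.93, 10.3 and 41.5. The set divided into 3 peaks at 5-fold or above and 7 between 3.31 and 4.69. The peaks were 206 to 386 bp wide.

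The peak nearest to the Pitx3 start was weak, and it was the only 1 of the 11 peaks with a long Pax sequence near its summit. It ran from 46223109 to 46223360, that is from 244 to 495 bp upstream of the TSS, and its summit was 368 bp upstream. The fold enrichment was 3.59 and the −log10 q was 4.93, above 8.00% and 6.58% of all peaks. The whole peak is printed here from the mm9 plus strand, opposite to Pitx3, with the paired-box core in capitals.
Pitx3 promoter peak, chr19:46223109-46223360: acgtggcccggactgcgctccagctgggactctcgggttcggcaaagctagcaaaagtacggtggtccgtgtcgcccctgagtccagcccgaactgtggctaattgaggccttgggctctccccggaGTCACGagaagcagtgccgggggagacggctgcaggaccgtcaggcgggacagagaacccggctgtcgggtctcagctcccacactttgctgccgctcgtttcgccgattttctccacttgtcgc
The core was centred 5.5 bp from the summit, 371 to 376 bp upstream of the Pitx3 TSS. The control sequence GCACTG, which is not a Pax site, was also present, 16.5 bp from the summit. Like GTCACG, it was found in 1 of the 11 summit windows. The window of the promoter peak had the highest GC content of the 11, 67.3%, and contained 7 CpG dinucleotides.

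A summit within 1 kb of the TSS was found for 11.8% of coding genes, and Pitx3 was one of them. GTCACG lay within 50 bp of 11.1% of all summits, and at least 1 of the 3 long Pax sequences lay within 50 bp of 14.6%. The shares in windows centred 500 bp to either side of the summits were 1.28% and 1.87%. In coding-gene promoters, taken from 250 bp before to 50 bp after the TSS and so longer than a summit window, they were 9.49% and 10.3%. The control GCACTG was near 6.86% of all summits, in 5.81% of the windows 500 bp away and in 17.2% of these promoters. Of the 11 Pitx peaks, 1 held a long Pax sequence, and with so few peaks the difference from 14.6% was not tested.

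A second peak stood in the short interval between Pitx3 and Gbf1, which are transcribed away from each other from starts 4183 bp apart. Gbf1 encodes an exchange factor for Arf GTPases of the Golgi. This peak, chr19:46226740-46226988, was 4.03 kb upstream of Pitx3 but 151 bp upstream of the Gbf1 TSS. With a fold enrichment of 4.69 and a −log10 q of 13.3, it had higher values than the peak at the Pitx3 start. The summits of the pair were 3664 bp apart.

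The strongest peaks near Pitx3 lay inside Gbf1. The window took in 4 summits within that gene, all in intron 3, which is 75.4 kb long and held no other summit. The strongest, chr19:46278868-46279253, was 56.2 kb upstream of Pitx3, with a fold enrichment of 11.2 and a −log10 q of 41.5. It exceeded 95.5% of all peaks in fold enrichment and was 3.11 times the value of the Pitx3 promoter peak. The next, chr19:46297686-46298001, was 75.0 kb upstream, with a fold enrichment of 9.59 and a −log10 q of 40.8, above 91.8% and 92.8% of all peaks. Among the Pitx3 peaks, these were also the widest, at 386 and 316 bp.

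The other Gbf1 peaks were among the weakest in the window. One was 1.88 kb from the 9.59-fold peak, at chr19:46299613-46299818, with a fold enrichment of 3.31. The other, chr19:46252171-46252388, was 29.4 kb upstream of Pitx3 with a fold enrichment of 3.60. Only 4.23% and 8.09% of all peaks had a lower value.

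The summit windows of the strongest pair are shown since neither held any of the 3 long Pax sequences searched. Capitals again mark ATTA and GTCAC on either strand, and both windows are from the mm9 plus strand.
Pitx3 peak of 11.2-fold, chr19:46278990-46279090: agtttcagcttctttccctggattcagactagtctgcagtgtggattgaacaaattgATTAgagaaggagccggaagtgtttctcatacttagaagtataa
Pitx3 peak of 9.59-fold, chr19:46297794-46297894: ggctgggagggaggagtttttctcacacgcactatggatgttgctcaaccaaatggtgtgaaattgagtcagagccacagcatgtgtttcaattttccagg
The first had ATTA 8.5 bp from its summit. The second had neither sequence within 50 bp. A factor for which no match was found may still bind there, Pax7 included. The search covered exact letters alone, and the homeodomain dimer at a single spacing.

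Downstream of Pitx3, the first peak lay at the 3′ end of the gene. Its summit was 148 bp past the end of Pitx3, in an annotated UTR of Elovl3, which encodes a fatty acid elongase and whose 3′ end meets that of Pitx3. The peak, chr19:46209917-46210146, had a fold enrichment of 4.39 and a −log10 q of 8.49. Pitx3 therefore had a summit within 1 kb of its start and another within 1 kb of its end. The latter was true of 1.91% of coding genes, and both were true of 57 of the 19060 coding genes longer than 2 kb. This pairing was picked out after the positions had been seen, and it rests on the weak promoter peak, whose −log10 q was 4.93.

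Farther downstream, an intergenic peak stood 51.3 kb from the Pitx3 TSS (chr19:46171499-46171756). Apart from the pair in Gbf1 it was the strongest in the window, with a fold enrichment of 5.91, above that of 63.6% of all peaks. The −log10 q was 13.0. The nearest coding start was that of Nolc1, which encodes a nucleolar phosphoprotein, 21210 bp from its summit. This was the single Pitx peak with TAATCC, the sequence preferred by Pitx-type homeodomains, within 50 bp of its summit. The match was on the minus strand, 41.5 bp away. TAATCC was near 6.35% of all summits and in 3.96% of the flanking windows.
Pitx3 peak with TAATCC in capitals on the opposite strand (mm9, plus strand, chr19:46171513-46171613): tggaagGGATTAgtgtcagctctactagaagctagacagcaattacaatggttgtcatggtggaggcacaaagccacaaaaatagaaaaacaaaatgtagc
It contains ATTA within the same match, and again 7.5 bp from the summit.

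The remaining peaks were at Pprc1, which encodes a coactivator related to PGC-1. One, chr19:46130839-46131056, was 91.9 kb downstream of Pitx3 and 81 bp upstream of the start of a coding Pprc1 transcript, with a fold enrichment of 4.29. The other, chr19:46123669-46123933, was 99.1 kb downstream, in an intron of a longer noncoding Pprc1 transcript and 4108 bp upstream of the TSS of Ldb1, which encodes a cofactor of LIM-domain proteins. It had a fold enrichment of 4.10 and a −log10 q of 12.0. Thus its −log10 q ranked higher than its fold enrichment, exceeding 51.6% of all peaks against 19.4%.

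**Figure D2:**
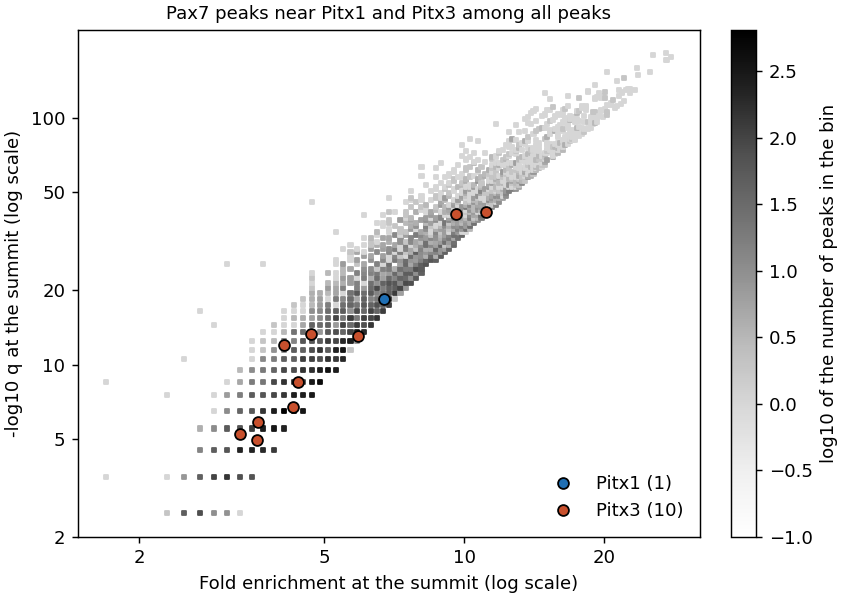
Fold enrichment (x axis, log scale) against −log10 q (y axis, log scale) at the summit. Grey squares are bins of all 20579 peaks, darker where more peaks fall, and circles are the Pitx1 peak (blue) and the 10 Pitx3 peaks (orange). Of the Pitx3 peaks, 7 lie below 5-fold and the 2 strongest, in a Gbf1 intron, at 9.59 and 11.2, while the 4.10-fold peak has a −log10 q of 12.0, high for its fold enrichment.

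Of the 10 Pitx3 peaks, 5 were intronic, 1 exonic and 1 intergenic, and 3 were less than 1 kb from an annotated TSS. For 9 of them, another coding gene had a start site nearer than that of Pitx3, and the exception was the promoter peak. Over transcripts of any type, the nearest start to the peak at the 3′ end was that of a Pitx3 transcript with a retained intron, 1752 bp away. For the farthest upstream pair it was that of Gm16726, 42439 and 44315 bp away. The peaks were shared with the windows of the neighbours. By the same rule, all 10 fell in the window of Elovl3, 9 in that of Gbf1, 7 in that of Nolc1, 6 in that of Pprc1 and 4 in that of Ldb1. Which gene, if any, each peak acts on was not tested here. The paper linked Pax7-bound enhancers to promoters by promoter capture Hi-C in Dox-treated iPax7 cells, and reported targets beyond the nearest promoter. Those contacts were not used here.

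By the number of peaks of any strength within 100 kb, few coding genes reached Pitx3. At least 10 summits in the window were found for 2.03% of coding genes, or 454 genes. This place depended on the weaker peaks and on the window. Counting peaks at 5-fold or above alone, Pitx3 had 3 and 19.8% of coding genes had as many, and for peaks of any strength the share was 7.23%, 5.35% and 7.53% with windows of 50, 200 and 500 kb. The 454 genes with at least 10 summits of any strength within 100 kb had a median length of 132 kb. The median for all coding genes was 15.4 kb, whereas Pitx3 is 12.7 kb long and Pitx1 11.1 kb. Of the 10106 coding genes no longer than Pitx3, 85 (0.841%) had at least 10 summits. The window of Pitx3 held 4.70 summits per 100 kb and the starts of 5 other coding genes, and 43.4% of coding genes had as many start sites around them. Neither Pitx gene had a summit inside it, which 22.3% of coding genes did.

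**Figure D3:**
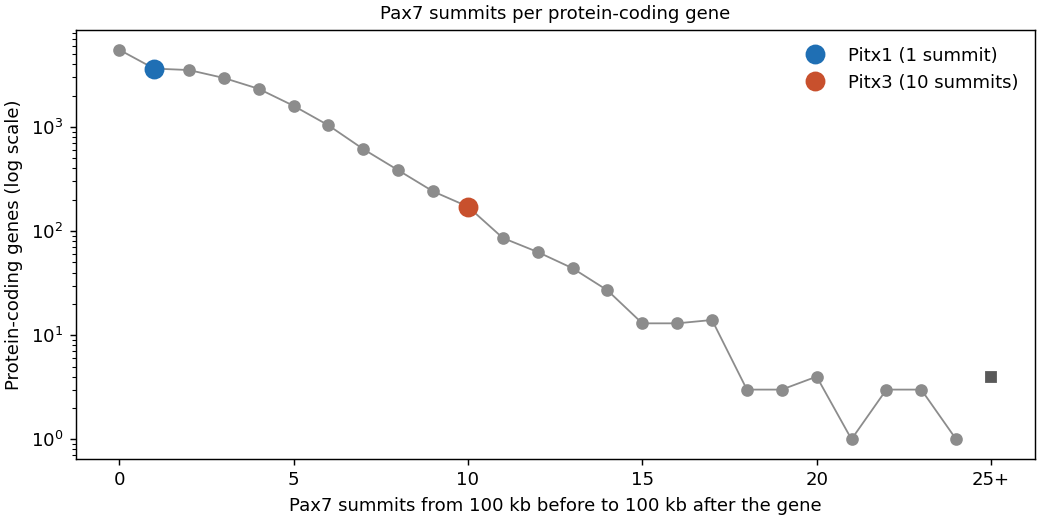
Number of protein-coding genes (y axis, log scale) by the number of Pax7 summits from 100 kb before to 100 kb after the gene (x axis, with 25 or more in the last square). The large circles mark the values of Pitx1, 1 summit, which 75.2% of coding genes reach or exceed, and of Pitx3, 10 summits, which 2.03% reach or exceed. Peaks of any strength are counted, and at 5-fold or above the share for Pitx3 is 19.8%.

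Distances of peaks from the window edges differed between the genes. The only Pitx1 peak was 92.2 kb inside the downstream edge and 119 kb inside the upstream edge. The first peaks left out there were 30.8 kb beyond the downstream edge and 28.8 kb beyond the upstream edge. At Pitx3, the first peak left out upstream was 4.67 kb beyond the edge, also in Gbf1, with a fold enrichment of 4.53, and the last one kept was 23.1 kb inside it with a value of 3.31. On the downstream side, the last peak kept was 13.6 kb inside and the first left out was 37.1 kb outside, with fold enrichments of 4.10 and 4.20.

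The short sequences that were added later were frequent. ATTA, the core of homeodomain sites, was within 50 bp of the summit in 8 of the 11 peaks, against 64.7% of all summits. GTCAC was found in 5 of the 11, against 31.9%. At least 1 of these sequences was present in 9 of the 11, against 77.7% of all summits. The peaks with GTCAC were the Pitx1 peak and the Pitx3 peaks at the promoter, in the Elovl3 UTR, 76.9 kb upstream and 99.1 kb downstream. In the last of these it was 11.0 bp from the summit. The E-box CAGCTG, which muscle bHLH factors such as MyoD bind, was within 50 bp of the summit in 1 peak, the 3.60-fold peak in Gbf1, against 15.7% of all summits.

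GC content within 50 bp of the summit varied among the Pitx3 peaks from 32.7% to 67.3%, with a median of 47.5%. The lowest value belonged to the 3.31-fold peak in Gbf1, and the highest to the promoter peak. The strongest peak had a GC content of 39.6% and the next 47.5%. The whole windows had a GC content of 48.7% at Pitx1 and 44.6% at Pitx3. Whether GC content bears on the peak counts was not tested.

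Pitx1 and Pitx3 were also set beside 26 other paired-class homeobox genes, whose windows were counted in the same way. Of these, 21 had at least 1 Pax7 summit and 5 had none, with a median of 1.00 and a maximum of 9. Over all coding genes, 75.2% had at least 1 and the median was 2.00. No gene of the list had 10 or more. The closest to Pitx3 was Prrx1, a gene of limb and craniofacial mesenchyme, with 9 summits, of which 7 were at 5-fold or above and 3 were inside the gene. Its strongest peak was 15.8-fold and its median 7.85-fold, compared with 11.2-fold and 4.34-fold for Pitx3. Drgx and Otp, genes of sensory and hypothalamic neurons, had 6 each, and Hesx1, a gene of the pituitary and forebrain primordia, had 5. Alx4, of limb and skull mesenchyme, had 4.

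Among the bicoid-type genes, whose homeodomains resemble those of Pitx1 and Pitx3, counts ran from 1 to 4. The quartiles over all coding genes were 1.00 and 4.00. Dmbx1 had 4 summits, and Crx, a photoreceptor gene, had 2. Otx1, Otx2 and Gsc, genes of the anterior embryo, had 1 each, as did Pitx1. The single Otx2 peak was 5.85-fold, that of Gsc was 3.66-fold and that of Otx1 was 3.57-fold, while the Pitx1 peak was 6.72-fold. Within 1 kb of the TSS, a summit was found for 1 of the 26 genes, Drgx, against 11.8% of all coding genes.

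**Figure D4:**
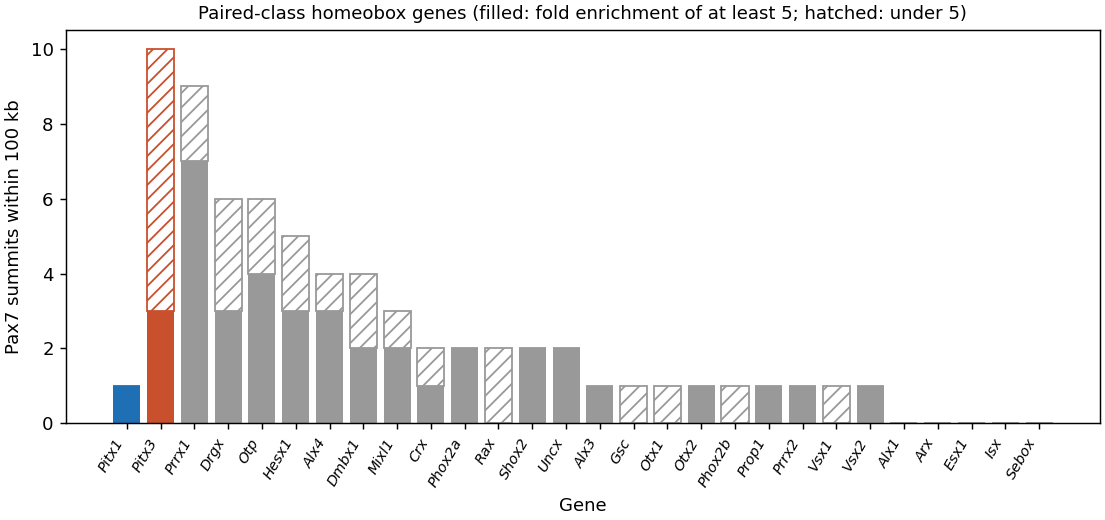
Pax7 summits from 100 kb before to 100 kb after each gene (y axis) for Pitx1 (blue), Pitx3 (orange) and 26 other paired-class homeobox genes (grey). Filled parts are peaks with a fold enrichment of at least 5 and hatched parts are peaks below it. Pitx3 has the tallest bar, 10, of which 3 are filled, and Prrx1 follows with 9, of which 7 are filled.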

How the data were processed

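Per the labels and the methods, single-end reads of 2 Pax7 ChIP and 2 input libraries were aligned to mm9 with bowtie2, uniquely mapped reads were kept, duplicates were removed with Picard, replicates were merged and peaks were called with MACS2. The deposited list holds, as made by the authors, a fold enrichment (ratio over local background), the −log10 q-value, a score that is 10 times this with its decimals dropped, and the summit position. A column of −log10 p was not used. The lowest −log10 q was 2.07. Per-sample columns without a sample numbered 0. Coordinates are 1-based. Summits were placed on GENCODE vM1 and the NCBIM37 genome, the build of the list. Genes were taken from start to end with 100 kb on either side, and the same rule was applied to all 22350 protein-coding genes on chromosomes with peaks. For 2 homeobox genes with 2 annotation entries, the longer was used. Motifs were exact strings, searched on both strands. Counting and motif search were tested on simulated data first. No test was run, since the list has no replicate values.

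Named were both Pitx genes, genes that hold a member summit or have the nearest TSS, the 5 bicoid-type genes and the 5 other listed genes with the most peaks. Catsper3, H2afy, Fgf8, Ddx41 and the 5 peaks before H2afy were named after their values were seen. The members and lists were chosen with earlier results of these data known. Computations were run in Python 3.11.15 with matplotlib 3.10.9, scipy 1.17.1, pandas 2.3.3 and numpy 2.4.6. The alternatives were windows of 50, 200 and 500 kb, any overlap of 1 bp, minimum values of 5 for −log10 q and for fold enrichment, merging within 500 bp, a window around the TSS alone, counts per 100 kb, and motif windows of 25 and 100 bp.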

Additional observations from a re-analysis of the deposited data

How the results depend on the processing

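No paired analysis was possible because the list was called on merged libraries, and for the same reason no replicate could be left out. A count or median was taken as unchanged within 1.5 times, and a share within its 95% Wilson interval. Pitx1 had 8 peaks with 200 kb and 15 with 500 kb, in place of 1, and Pitx3 had 5 with 50 kb and 21 with 500 kb, in place of 10. Pitx3 kept 3 peaks at a fold enrichment of at least 5. The share of coding genes with at least as many peaks as Pitx1, 75.2%, became 62.1%, 19.6% and 26.3% with 50, 200 and 500 kb, 61.3% at 5-fold or above and 65.2% per 100 kb of window. For Pitx3, 2.03% became 7.23%, 5.35% and 7.53% with the same windows, 19.8% at 5-fold or above and 0.582% per 100 kb. With GTCAC or ATTA in place of the longer Pax sequences, chosen after seeing the data, 9 of the 11 peaks had a match in place of 1, as did 77.7% of all summits. Of 37 alternatives, the remaining 21 left their value unchanged in this sense. These included any overlap, a −log10 q of at least 5, merging and the TSS window for both counts, every alternative for the median fold enrichments, and both other motif windows. At a −log10 q of at least 5, however, Pitx3 kept 9 peaks, and the 1 lost was the promoter peak, at 4.93. That peak was the only 1 within 1 kb of the Pitx3 TSS and the only 1 of the 11 with a long Pax sequence, so neither statement holds at that minimum. The depth behind a peak is unknown, so no interval could be given.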

Other observations

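Within 500 kb, the strongest peak around Pitx3 was not one of the 10. It was a 13.2-fold peak with a −log10 q of 54.1, above 98.0% of all peaks, inside Fgf8, which encodes a growth factor of limb and brain organisers, 411 kb downstream of Pitx3. Of the 21 summits in that wider window, which include the 10, 6 had a long Pax sequence within 50 bp, against 14.6% of all summits. The difference was not tested. Around Pitx1, the strongest of 15 summits within 500 kb was a 10.6-fold peak 19 bp downstream of the start of Ddx41, which encodes a DEAD-box helicase, 300 kb downstream of Pitx1. Among these 15, 2 had a long Pax sequence near the summit, a share near that of all summits. These loci were chosen after their values were seen, and whether they bear on either Pitx gene was not tested.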
